A study of Mus musculus with 4 samples.

Results

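The expression of 9 complement genes was followed through 4 single-cell libraries of mouse aorta. They were taken by symbol: the component genes C3 and C4b, the C1 protease genes C1ra and C1s1, the C1 inhibitor gene Serping1, the membrane regulator gene Cd55, and the receptor genes C3ar1, C5ar1 and C5ar2. All 9 were found among the 32285 genes listed in the deposited matrices. The study asked how aortic cells differ between wild-type mice (WT) and mice labelled LysM-DKO, on 2 diets, and its title names the epsins as the targeted proteins. Each of the 4 groups was 1 library: WT and LysM-DKO, both fed normal diet, and WT/ApoE-/- and LysM-DKO/ApoE-/-, both fed western diet. Both western diet groups carried ApoE-/- and neither normal diet group did, so diet and Apoe genotype cannot be told apart. The labels do not spell out the DKO alleles, the age of the mice or how many aortas were pooled. LysM is a common name for Lyz2, whose promoter drives Cre in myeloid cells in widely used mouse strains.

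Complement is a cascade of plasma and tissue proteins that marks surfaces for uptake, and it can also lyse cells. C1q carries the proteases C1r and C1s. C1r activates C1s, which cleaves C4 and C2 to build an enzyme that splits C3. The fragments C3a and C5a then act on receptors of myeloid cells. Plaques of the arterial wall are known to contain complement proteins, and resident cells of the wall as well as the liver make them.

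With 1 library per group there were no replicates, so no test was possible and no p-value is given. Intervals are 95% intervals that cover counting error only. A unique molecular identifier (UMI) counts 1 captured transcript, and levels are given as CPM, the UMIs of a gene per 1000000 UMIs, summed over the barcodes of a cell class. Between 7758 and 13744 barcodes per library reached 1000 UMIs with no more than 10% of them mitochondrial, with 37789023 to 56888546 UMIs in all. Their median depth was 4167 and 3404 UMIs on normal diet (WT, then LysM-DKO) and 2103 and 6761 UMIs on western diet. Barcodes were put in the first of 6 classes whose marker counts they reached: macrophage, B, T, endothelial, fibroblast and smooth muscle. Defining markers that the rule did not use were highest in their own class in every library, with the exception of 1 of 3 T markers in LysM-DKO/ApoE-/-. Classes were mixed. Another class rule was met by 71.7% to 87.8% of endothelial, 37.0% to 63.9% of macrophage and 27.7% to 44.6% of fibroblast barcodes, and on normal diet by 62.1% to 71.3% of B and T barcodes. Smooth muscle markers summed to 17632 to 24598 CPM in endothelial and to 4373 to 8557 CPM in macrophage barcodes, where macrophage markers outside the rule summed to 2347 to 2855 CPM. The smooth muscle class also held hemoglobin and other blood transcripts on normal diet, with erythroid markers at 10198 CPM in WT and 17439 CPM in LysM-DKO. Few lymphocytes were left in LysM-DKO/ApoE-/-, with 14 B and 33 T barcodes, and these classes are not compared on western diet. Barcode sequences shared between libraries numbered 141 among 37865 kept barcodes.

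The labels were checked on the targeted genes. Apoe read 7012 and 5435 CPM in macrophages of the normal diet libraries and 8.44 and 8.55 CPM in those of the ApoE-/- libraries. The epsin genes were detected in every library. On normal diet Epn1 in macrophages was 81.7 CPM in WT and 54.5 CPM in LysM-DKO, and on western diet it was 52.4 and 42.8 CPM, with overlapping intervals within each diet. Epn2 was 35.6 and 33.6 CPM on normal diet and 33.2 and 15.7 CPM on western diet. The deleted part of either gene is not given, so 3' counts of these transcripts neither check nor contradict the genotype. Lyz2 in macrophages was 3696 CPM in WT against 978 CPM in LysM-DKO on normal diet, and 4126 against 798 CPM on western diet.

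In GRCm38, with GENCODE M21 annotation, all 9 genes are protein coding. C3 lies at chr17:57203970-57228136 and C4b at chr17:34728380-34743882. C1ra lies at chr6:124512405-124523443 and C1s1 close by at chr6:124530345-124542359, on the opposite strand. Serping1 lies at chr2:84765387-84775444, Cd55 at chr1:130439027-130462744 and C3ar1 at chr6:122847138-122856161. The C5a receptor genes are neighbours, C5ar2 at chr7:16234585-16244154 and C5ar1 at chr7:16246743-16259540. C4b, C1ra, C1s1 and Cd55 have near copies among the genes counted, and reads may be split between them (C4a, C1rb, C1s2 and Cd55b). In fibroblasts C4a had 2 to 11 UMIs per library, C1rb 1 to 3, C1s2 1 to 4 and Cd55b 0 to 4. C1s1 overlaps Gm16567 and Cd55 overlaps Gm16083 on the other strand, while C3 overlaps Mir6978 and C5ar2 overlaps Gm26473 on the same strand. How reads in overlapping genes were counted is not given in the sources used here.

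The bases just upstream of the start site are shown for 4 members whose levels differed between libraries. These are C3 and C1s1, highest in fibroblasts, and the receptor genes C3ar1 and C5ar2. Sequences are from RefSeq on GRCm38.p6, cut to end 1 base before the annotated start and written 5' to 3' along the transcribed strand, which is the minus strand for all 4. The C3ar1 sequence has 246 bases and the other 3 have 250. Capitals mark matches on either strand to 7 motifs: a loose NF-kB string (3 G and 2 C with any 5 bases between), TTGCNNAA (C/EBP), an interferon-stimulated response element (2 GAAA strings with any 2 bases between), TGANTCA (AP-1), GAGGAA (PU.1), TTCNNNGAA (STAT) and TATAAA, found in many core promoters. The C3 window is chr17:57228137-57228386, that of C1s1 chr6:124542360-124542609, that of C3ar1 chr6:122856162-122856407 and that of C5ar2 chr7:16244155-16244404.
C3: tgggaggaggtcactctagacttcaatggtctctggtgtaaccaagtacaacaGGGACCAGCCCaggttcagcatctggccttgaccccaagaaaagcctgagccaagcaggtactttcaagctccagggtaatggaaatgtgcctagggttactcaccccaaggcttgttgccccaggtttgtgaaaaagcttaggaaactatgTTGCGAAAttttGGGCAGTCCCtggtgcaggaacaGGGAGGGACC
C1s1: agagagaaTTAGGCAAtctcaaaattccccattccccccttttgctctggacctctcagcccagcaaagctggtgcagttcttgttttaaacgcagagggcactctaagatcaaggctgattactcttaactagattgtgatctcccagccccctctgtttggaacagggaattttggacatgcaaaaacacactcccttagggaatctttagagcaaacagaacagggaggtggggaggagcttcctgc
C3ar1: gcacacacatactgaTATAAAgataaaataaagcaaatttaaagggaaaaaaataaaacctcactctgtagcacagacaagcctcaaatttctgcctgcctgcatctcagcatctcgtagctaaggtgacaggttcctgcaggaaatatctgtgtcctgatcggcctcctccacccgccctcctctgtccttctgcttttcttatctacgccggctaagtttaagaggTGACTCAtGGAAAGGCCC
C5ar2: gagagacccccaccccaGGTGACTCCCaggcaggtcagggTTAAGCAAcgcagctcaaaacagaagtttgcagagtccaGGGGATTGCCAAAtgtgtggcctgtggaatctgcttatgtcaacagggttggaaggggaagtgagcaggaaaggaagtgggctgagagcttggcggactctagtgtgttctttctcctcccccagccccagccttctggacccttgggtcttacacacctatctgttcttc
The C3 window held 4 NF-kB matches, 2 of them overlapping, and 1 C/EBP match that begins 45 bases before the start. The C1s1 window held 1 C/EBP match, 242 bases before the start. The C3ar1 window held an AP-1 match 18 bases before the start, an NF-kB match at 10 bases and a TATAAA string at 231 bases. The C5ar2 window held 2 NF-kB and 2 C/EBP matches, of which the pair near 171 and 166 bases overlapped. Among 32851 windows of 250 bases upstream of RefSeq starts, 45.8% held the loose NF-kB string, 9.56% the C/EBP string, 6.75% the AP-1 string and 12.4% TATAAA. The strings for PU.1 (23.3% of windows), STAT (7.02%) and the interferon element (2.98%) were not in the 4 windows shown. These are matches of letters and not measured sites. Of the 9 genes, 7 had an entry in the table of upstream sequences, and C4b and Serping1 were not among them.

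Of the 9 genes, 6 had the same highest class in every library. By CPM, C3, Serping1, C1ra and C1s1 were highest in fibroblasts in all 4 libraries, and C3ar1 and C5ar1 were highest in macrophages in all 4. By share of UMIs, the more numerous smooth muscle barcodes were above fibroblasts in WT/ApoE-/-. Their shares were 43.8% against 28.4% for C3, 46.7% against 31.9% for Serping1, 57.6% against 19.3% for C1ra and 56.9% against 19.7% for C1s1. On normal diet fibroblasts held the larger share of each, and in LysM-DKO/ApoE-/- only of C3. Serping1, whose protein inhibits C1r and C1s, read 1784 and 1894 CPM in fibroblasts on normal diet (WT, then LysM-DKO) and 985 and 1412 CPM on western diet. At least 1 Serping1 UMI was seen in 95.5%, 95.5%, 87.5% and 93.3% of fibroblast barcodes, in the same order. C3, the central component, read 853 and 1157 CPM in fibroblasts on normal diet and 1034 and 424 CPM on western diet. C1s1 read 376 and 472 CPM and then 284 and 211 CPM. C1ra read 230 and 254 CPM and then 202 and 197 CPM. These 3' UMI levels depend on the capture of each transcript as well as on its abundance.

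**Figure D1:**
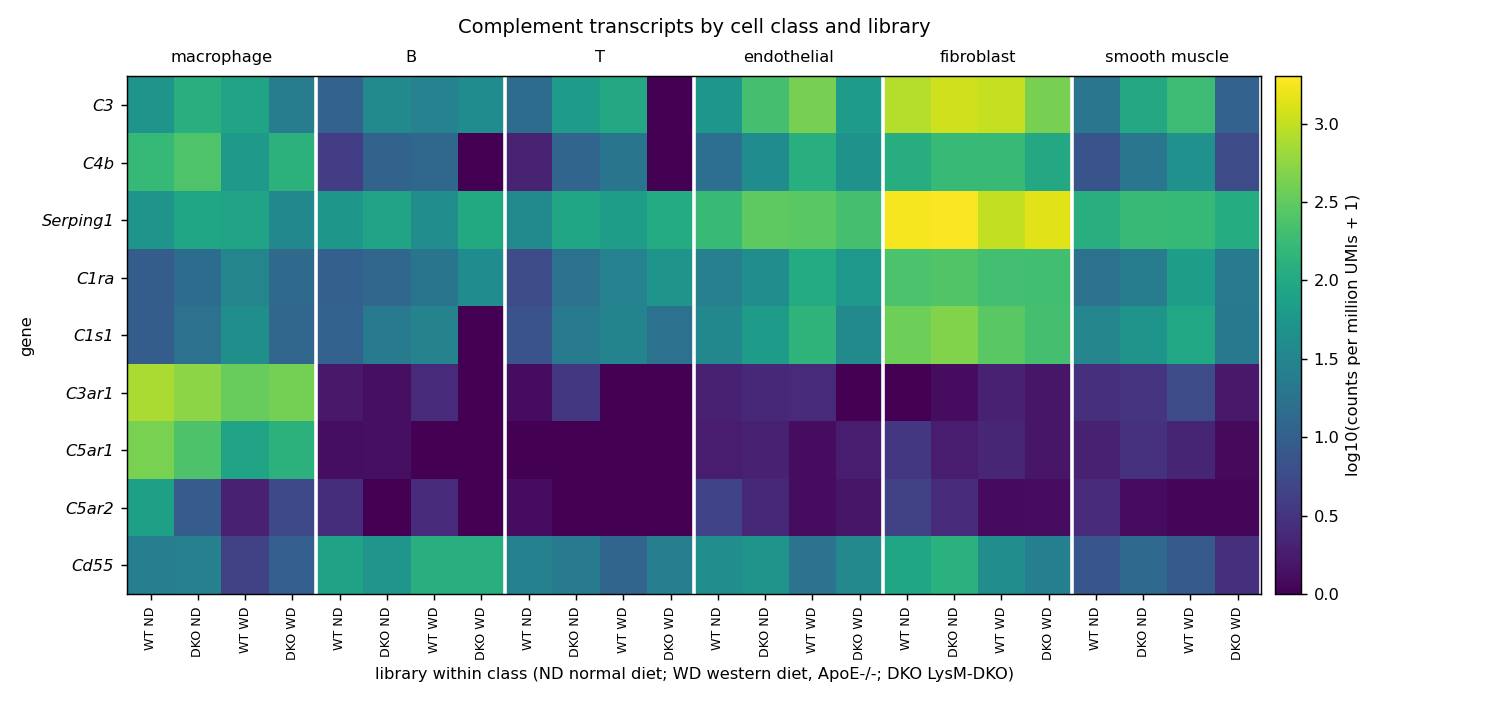
Colour gives log10(CPM + 1) of each of the 9 genes (rows) in each of 6 cell classes and 4 libraries (columns; ND normal diet, WD western diet with ApoE-/-, DKO LysM-DKO). The fibroblast columns are brightest for Serping1 and C3, up to 1894 CPM, and the macrophage columns for C3ar1 and C5ar1; B and T columns of the last library rest on 14 and 33 barcodes.

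C4b, which is split by C1s, did not keep one highest class. It read 163, 245, 60.9 and 130 CPM in macrophages and 114, 170, 170 and 97.5 CPM in fibroblasts, in the order WT and LysM-DKO on normal diet, then WT/ApoE-/- and LysM-DKO/ApoE-/- on western diet. Macrophages were thus above fibroblasts in 3 of 4 libraries, although in LysM-DKO/ApoE-/- the intervals overlapped. Macrophages were few and held 6.93% to 16.02% of all C4b UMIs, and fibroblasts held 19.3% to 45.5%. Smooth muscle barcodes held 19.05% to 46.33%, and in WT/ApoE-/- they held the largest share. Cd55, which speeds the decay of C3-splitting enzymes on cell surfaces, was highest in fibroblasts on normal diet (90.0 and 127 CPM) and in B barcodes of WT/ApoE-/- (121 CPM), and in WT on normal diet the fibroblast and B intervals overlapped. C5ar2, the second C5a receptor, was rare everywhere, with 109, 28, 14 and 11 UMIs per library over all kept barcodes.

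Across the 24 sums of 6 classes by 4 libraries, the genes closest to each member were looked up by Pearson's r of log2(CPM + 10), over 6431 genes with a mean of at least 20 CPM. The sums share libraries and depth, and the r values are descriptions. C3 was most like Cfb (r = 0.92), the gene of alternative pathway factor B, then Steap4 (0.92) and Cxcl12 (0.91). Serping1 was most like Adamts2 (0.97), Il33 (0.96) and Gsn (0.96), C1ra like Matn2 (0.98), Pcolce (0.96) and Dcn (0.96), and C1s1 like Sfrp4 (0.96), Steap4 (0.95) and Adamts2 (0.94). C3ar1 was most like Csf1r, Folr2 and Nlrp3 (0.997, 0.996 and 0.996), and C5ar1 like Fcrls, Mgl2 and Mrc1 (0.996, 0.992 and 0.992). C4b had lower values with its nearest genes Gda (0.92), Fcgrt (0.91) and Ptgs2 (0.90), and Cd55 the lowest, with Add3 (0.83), Irak3 (0.73) and Kcnq1ot1 (0.73). Among members, C3ar1 and C5ar1 had r = 0.99 and Serping1 and C1ra r = 0.93, whereas C3 and C3ar1 had r = -0.09. C5ar2, with 155 UMIs in these sums, was not ranked.

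C3 in fibroblasts differed between the genotypes on western diet by more than counting error. It was 2.44-fold lower in LysM-DKO/ApoE-/- than in WT/ApoE-/-, at 424 CPM (interval 402 to 446) against 1034 CPM (1003 to 1067), a log2 ratio of -1.29 (-1.38 to -1.20). On normal diet it was 1.36-fold higher in LysM-DKO than in WT, a log2 ratio of 0.44 (0.37 to 0.51). The intervals of the 4 libraries did not overlap, and LysM-DKO was the higher library on one diet and the lower on the other. Fibroblast barcodes had similar median depths of 4086.5, 4137, 4048.5 and 3918.5 UMIs. Over 11 alternative settings the western diet ratio lay between -1.59 and -1.24.

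On normal diet the share of barcodes with C3 and the mean level had opposite orders. There 60.2% of WT fibroblast barcodes had a C3 UMI against 48.5% in LysM-DKO, although the mean was higher in LysM-DKO. Thinned to 1000 UMIs per barcode, the shares were 38.5% and 34.1%, and on western diet 40.5% and 25.4%. At 10 or more C3 UMIs the order had turned, with 13.4% of WT against 15.6% of LysM-DKO barcodes and overlapping intervals. At 20 or more there were 23 of 628 WT barcodes (3.66%) against 53 of 751 LysM-DKO barcodes (7.06%, interval 5.33% to 9.13%). At 50 or more there was 1 WT barcode and there were 13 LysM-DKO barcodes. The 75 LysM-DKO barcodes richest in C3, 10% of the class, held 66.3% of its C3 UMIs, and the 63 richest of WT held 50.3%. On western diet LysM-DKO/ApoE-/- was below WT/ApoE-/- at every level: 40.4% against 61.2% of barcodes had a C3 UMI, 6.12% against 18.1% had at least 10, and 0 of 654 against 18 of 634 had at least 50. The 0 allows a share of up to 0.459% by the 3-count limit and 0.5625% by the exact binomial interval.

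**Figure D2:**
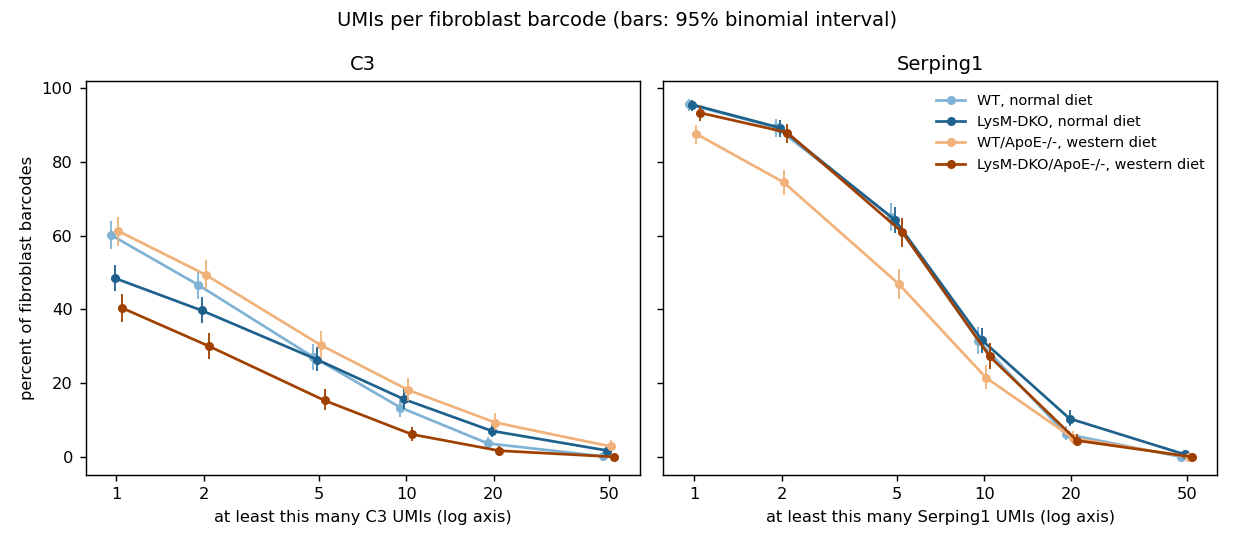
Percent of fibroblast barcodes (y axis) with at least 1, 2, 5, 10, 20 or 50 UMIs (x axis, log scale) of C3 (left) and Serping1 (right), 1 line per library, with 95% binomial intervals. The LysM-DKO/ApoE-/- line for C3 lies lowest from 40.4% at 1 UMI to 1.68% at 20 UMIs, and for Serping1 the WT/ApoE-/- line lies lowest at 1 UMI, at 87.5%.

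Fibroblast barcodes were divided by surface and matrix genes into those with Pi16 or Dpp4 UMIs, known for adventitial fibroblasts, then those with at least 3 UMIs of Spp1, Tnfrsf11b and Vcam1 in sum, and the rest. The Spp1, Tnfrsf11b and Vcam1 subset made up 10.4% and 9.99% of the class on normal diet, 40.7% in WT/ApoE-/- and 15.9% in LysM-DKO/ApoE-/-. Chondrocyte markers moved with it, from 201 and 305 CPM in the class on normal diet to 4282 and 1305 CPM on western diet. C3 was lower in LysM-DKO/ApoE-/- than in WT/ApoE-/- in each subset. It read 530 against 1522 CPM in the Pi16 or Dpp4 subset (log2 ratio -1.52, interval -1.65 to -1.39), 193 against 677 CPM in the Spp1 subset (-1.81, -2.02 to -1.60) and 543 against 1888 CPM in the rest (-1.80, -1.96 to -1.64). On normal diet LysM-DKO was above WT in each subset, by log2 ratios of 0.31, 1.15 and 0.40. Of the 628 C3 UMIs in the LysM-DKO Spp1 subset, 137 came from 1 barcode.

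The C1 genes differed less in the same barcodes. C1ra in fibroblasts had a genotype log2 ratio of 0.14 on normal diet (-0.0013 to 0.29) and -0.04 on western diet (-0.19 to 0.11). C1s1 had 0.33 (0.22 to 0.44) and -0.43 (-0.57 to -0.29), and in the Spp1 subset on western diet it read 93.9 against 199 CPM, a log2 ratio of -1.08 (-1.41 to -0.77). C4b in fibroblasts had 0.58 (0.38 to 0.78) and -0.80 (-0.997 to -0.607). C4b UMIs were more often found in fibroblast barcodes with C3 than in those without it, when each barcode was thinned to 1000 UMIs. On western diet 29.6% of WT/ApoE-/- barcodes with C3 had C4b (interval 24.1% to 35.6%) against 5.84% of those without (3.69% to 8.70%). In LysM-DKO/ApoE-/- the shares were 16.3% and 2.87%, and on normal diet they were 24.6% and 4.65% in LysM-DKO, and 9.92% and 5.96% in WT, where the intervals overlapped.

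Serping1 was lower in the Spp1 subset than in the other 2 subsets in every library. It read 2102, 2138, 2010 and 1760 CPM in the Pi16 or Dpp4 subset and 1614, 1694, 1741 and 1894 CPM in the rest. In the Spp1 subset it read 1034 and 1473 CPM on normal diet and 438 and 577 CPM on western diet. Its western over normal diet log2 ratio in WT fibroblasts was -0.86 (-0.92 to -0.80) over the whole class and -0.0014 without barcodes that held 3 or more Spp1, Tnfrsf11b and Vcam1 UMIs. Its genotype log2 ratio on western diet was likewise 0.52 (0.46 to 0.58) for the class and -0.02 without them. The C3 genotype ratio on western diet was -1.41 in the same reduced class.

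**Figure D3:**
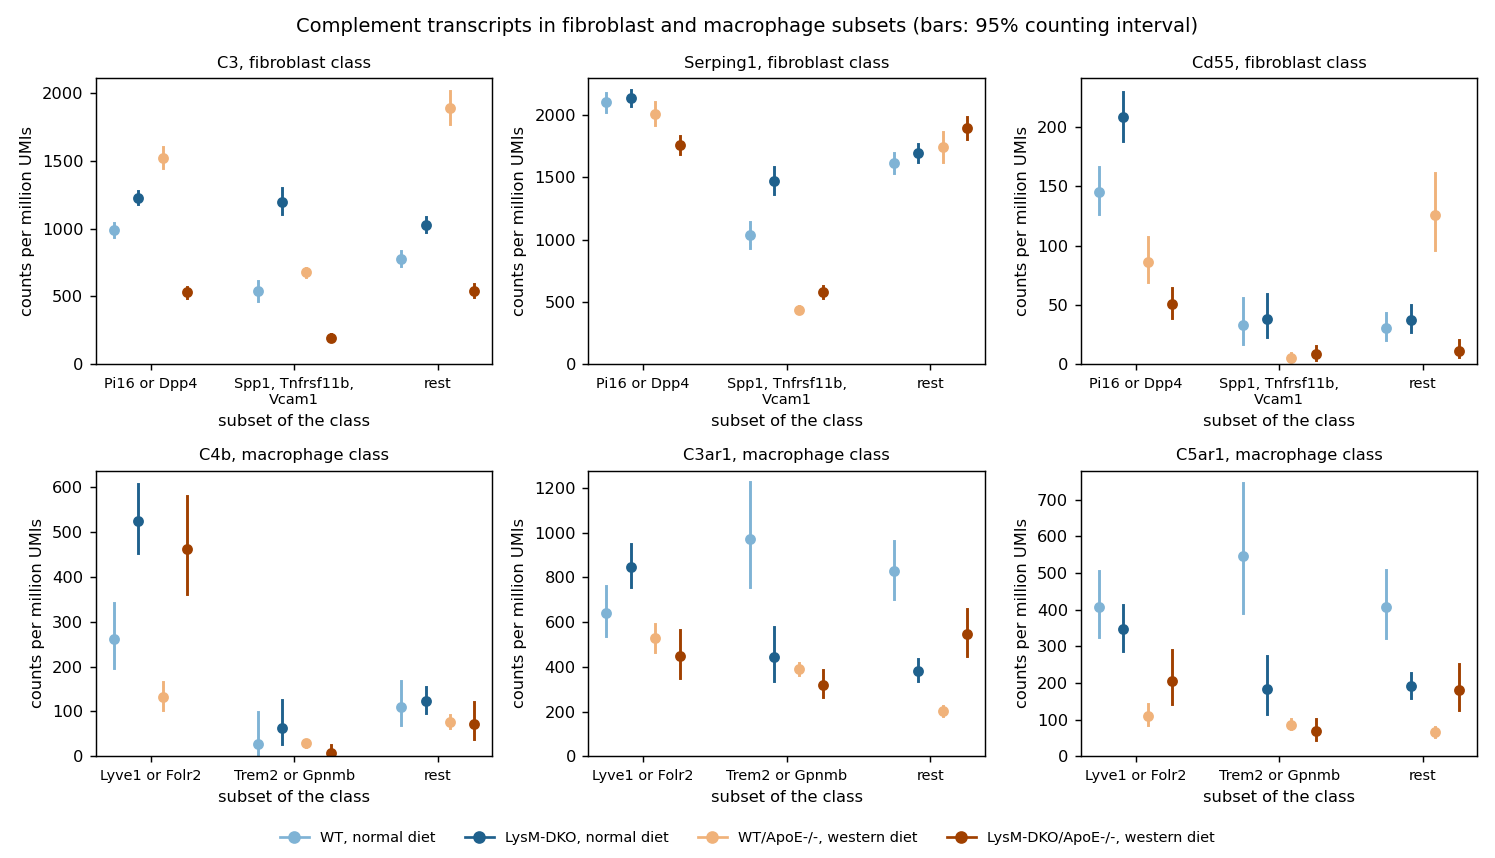
CPM with 95% counting intervals (y axes) of C3, Serping1 and Cd55 in 3 fibroblast subsets (top) and of C4b, C3ar1 and C5ar1 in 3 macrophage subsets (bottom), 1 colour per library. C3 in LysM-DKO/ApoE-/- is lowest in every fibroblast subset, C4b is highest among Lyve1 or Folr2 macrophages in every library, and the WT/ApoE-/- Cd55 point of the fibroblast rest at 126 CPM holds 1 barcode with 55 of 61 UMIs.

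C3 was lower in the other 5 classes than in fibroblasts, and in smooth muscle and endothelial barcodes it moved with a fibroblast matrix transcript. Dcn, which encodes decorin, served as a reference for fibroblast RNA in other barcodes. Whether barcodes of the other classes made Dcn themselves was not tested. C3 in macrophages was 5.90%, 10.3%, 8.01% and 5.72% of the fibroblast level (libraries in the same order), where Dcn was 3.03%, 1.85%, 10.7% and 2.44% of its own. In smooth muscle barcodes C3 was 2.21%, 8.30%, 17.5% and 2.34%, and Dcn 1.39%, 4.39%, 16.8% and 1.43%. In endothelial barcodes C3 was 6.19%, 18.0%, 40.2% and 15.6%, and Dcn 5.93%, 10.5%, 45.2% and 15.9%. In smooth muscle and in endothelial barcodes both shares were highest in WT/ApoE-/- and lowest in WT on normal diet. In macrophages LysM-DKO on normal diet had the highest C3 share and the lowest Dcn share, and 1 barcode gave 44 of its 131 C3 UMIs. With marked doublets removed, 64 of 65 ratios past 2-fold, over all members and contrasts, still passed it. Without barcodes that met several class rules 53 of 65 did. In WT on normal diet 758 kept barcodes were marked as doublets while 1849 met 2 or more class rules, so removing marked doublets left mixed barcodes in. The part of free RNA in these levels was not tested.

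**Figure D4:**
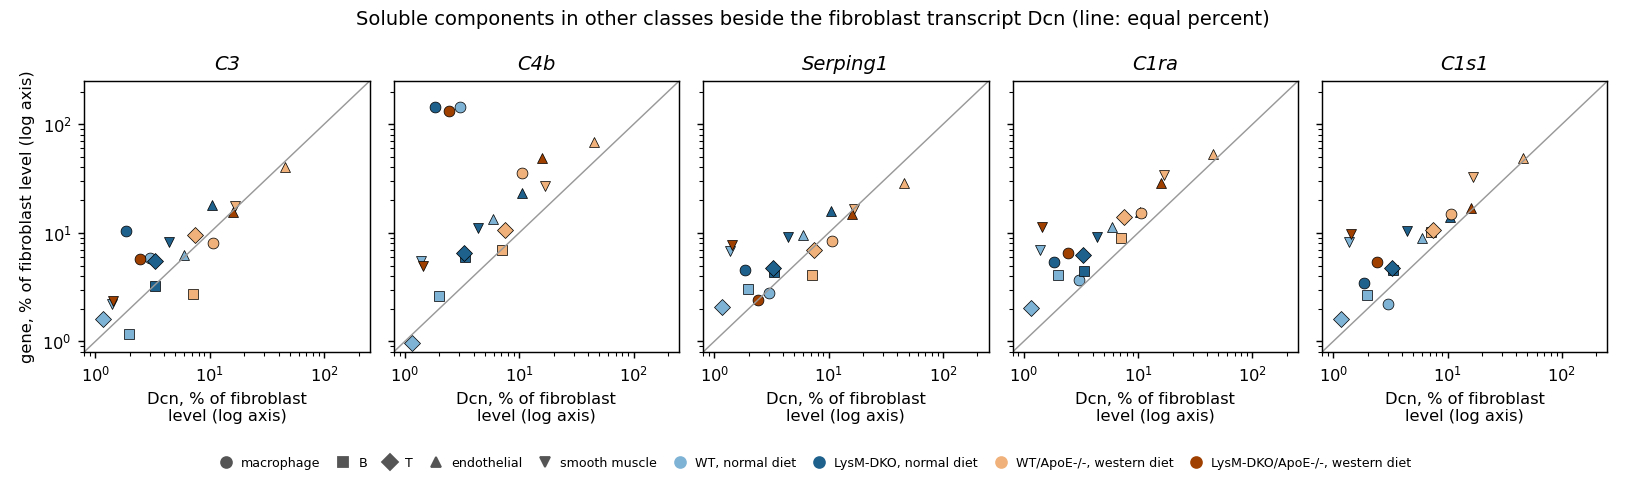
Level of 5 soluble component genes in 5 other classes as a percent of the fibroblast level of the same library (y axis, log) against the same percent for Dcn (x axis, log). C3 points run from 1.17% to 40.2%, and C4b in macrophages stands far above the line of equal percent at 133% to 145% in 3 libraries; zeros and the B and T classes of LysM-DKO/ApoE-/- are not drawn.

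Among the macrophage, endothelial, fibroblast and smooth muscle classes, the last had the widest C3 range in fold, 18.8 and 96.0 CPM on normal diet and 181 and 9.91 CPM on western diet. LysM-DKO was 5.09-fold above WT on normal diet and 18.3-fold below it on western diet, log2 ratios of 2.35 (2.20 to 2.50) and -4.19 (-4.33 to -4.06). Several marker lists moved with this. Summed fibroblast markers in the class were 1499 and 1803 CPM on normal diet and 6011 and 1731 CPM on western diet, and barcodes with a Dcn or Lum UMI made up 34.0%, 49.8%, 73.8% and 17.9% of it. Mesothelial markers were 6.96 and 46.9 CPM on normal diet and 0.23 CPM in both western diet libraries, and neutrophil markers were 193 CPM in LysM-DKO on normal diet against 2.30 to 13.7 CPM elsewhere. Smooth muscle barcodes with no Dcn or Lum UMI had less C3, 5.01, 27.7, 15.8 and 1.76 CPM. Their genotype log2 ratios were 2.46 on normal diet (2.08 to 2.86) and -3.16 on western diet (-3.59 to -2.75). One barcode gave 83 of the 231 C3 UMIs behind the LysM-DKO value on normal diet. Serping1 in these barcodes read 103, 130, 105 and 99.9 CPM, with a western diet ratio of -0.07 (-0.16 to 0.03).

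The endothelial class also had its highest C3 level in WT/ApoE-/-, at 52.8 and 208 CPM on normal diet and 416 and 65.9 CPM on western diet. In the 51 to 249 barcodes per library that met only the endothelial rule, C3 read 32.6 and 56.9 CPM and then 333 and 62.4 CPM. The log2 ratio there was 0.78 (-0.04 to 1.72) on normal diet, so that the difference was not detectable at this depth, and -2.38 (-3.21 to -1.69) on western diet, where 1 barcode gave 32 of the 123 C3 UMIs of WT/ApoE-/-. A small set of barcodes outside every class stood out by level: 8, 23 and 3 barcodes with 2 or more UMIs of Upk3b and Msln, markers of the mesothelium, had 1556 and 4752 CPM of C3 on normal diet (WT, then LysM-DKO) and 4418 CPM in LysM-DKO/ApoE-/-. No such barcode was found in WT/ApoE-/-. In LysM-DKO/ApoE-/- 1 of the 3 barcodes gave 91 of 157 C3 UMIs.

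In macrophages C4b was highest in barcodes with Lyve1 or Folr2, genes known for resident macrophages of the vessel wall, taken at 2 or more UMIs of both genes in sum. It read 262 and 525 CPM there on normal diet and 132 and 462 CPM on western diet. In barcodes with Trem2 or Gpnmb, genes of lipid-laden macrophages, at the same minimum, it read 27.4 and 63.6 CPM and then 28.7 and 8.59 CPM. The remaining macrophages had 111 and 124 CPM and then 76.3 and 72.8 CPM. LysM-DKO was above WT in the Lyve1 or Folr2 subset on both diets, by log2 ratios of 0.99 (0.56 to 1.47) and 1.80 (1.32 to 2.29). No barcode of this subset held more than 11 C4b UMIs, and the subset had 38, 74, 87 and 47 barcodes. Over the whole macrophage class the ratios were 0.58 (0.22 to 0.97) and 1.10 (0.73 to 1.45). The class changed in makeup: Lyve1 or Folr2 barcodes were 41.3%, 35.6%, 9.27% and 34.8% of it, and Trem2 or Gpnmb barcodes 9.78%, 7.69%, 42.8% and 33.3%. C4b in macrophages did not track Dcn, being 144%, 145%, 35.8% and 133% of the fibroblast level against Dcn at 1.85% to 10.7%.

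C3ar1, the receptor for C3a, was highest in WT on normal diet. It read 769 (692 to 851) and 539 (496 to 584) CPM in macrophages on normal diet and 339 (321 to 358) and 412 (366 to 462) CPM on western diet. C5ar1, the main receptor for C5a, followed the same order at 429 (373 to 492), 240 (212 to 271), 82.3 (73.6 to 91.8) and 131 (106 to 161) CPM. For both genes LysM-DKO was below WT on normal diet and above it on western diet. The log2 ratios were -0.51 (-0.70 to -0.32) and 0.28 (0.09 to 0.46) for C3ar1, and -0.84 (-1.11 to -0.57) and 0.68 (0.32 to 1.01) for C5ar1. None of these 4 passed 2-fold. Over the alternative settings the western diet ratios ran from -0.0013 to 0.74 for C3ar1 and from 0.35 to 1.06 for C5ar1. Median depth of the macrophage class was 4708.5, 4715, 2796 and 4025 UMIs, and at 1000 UMIs per barcode C3ar1 was seen in 50%, 39.9%, 22.0% and 41.5% and C5ar1 in 29.3%, 13.9%, 5.32% and 15.6% of barcodes.

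Within the macrophage subsets the receptors did not keep one order. In Lyve1 or Folr2 barcodes C3ar1 read 641 and 848 CPM on normal diet, with LysM-DKO above WT (log2 ratio 0.40, 0.10 to 0.71), and 527 and 449 CPM on western diet. In Trem2 or Gpnmb barcodes it read 971 and 445 CPM and then 389 and 321 CPM, from 9 and 16 barcodes on normal diet. In the remaining macrophages C3ar1 read 826 and 382 CPM and then 201 and 546 CPM, and C5ar1 408 and 191 CPM and then 65.9 and 182 CPM. On western diet LysM-DKO/ApoE-/- was above WT/ApoE-/- in these remaining barcodes, with log2 ratios of 1.44 (1.10 to 1.77) for C3ar1 and 1.48 (0.86 to 2.04) for C5ar1. C5ar1 was also higher in Lyve1 or Folr2 barcodes (0.91, 0.24 to 1.53), where C3ar1 was at -0.22 (-0.62 to 0.15), and in Trem2 or Gpnmb barcodes both intervals held 0. The remaining barcodes had a median of 1894 UMIs in WT/ApoE-/- against 3992 in LysM-DKO/ApoE-/-, and the part of low-depth barcodes in the difference was not tested.

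C3ar1 and C5ar1 UMIs outside macrophages were few. Macrophages held 85.0% to 90.3% of all C3ar1 UMIs and 82.6% to 84.4% of all C5ar1 UMIs. Fibroblasts had 0, 1, 4 and 2 C3ar1 UMIs, and for the 0 in WT on normal diet the limit was 1.05 CPM. T barcodes had no C5ar1 UMI in any library. In smooth muscle barcodes C3ar1 was 1.82, 2.27, 4.71 and 0.66 CPM, which was 0.24%, 0.42%, 1.39% and 0.16% of the macrophage level. Macrophage reference transcripts (Cd68, Csf1r, Adgre1 and Ms4a7) stood at 0.98%, 1.80%, 1.48% and 0.45% there.

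C5ar2, a C5a receptor that does not couple to G proteins, stood apart by library. It had 35, 9, 4 and 3 UMIs in macrophages, or 73.3 (51.1 to 102), 8.18 (3.74 to 15.5), 1.02 (0.28 to 2.62) and 4.28 (0.88 to 12.49) CPM. The WT normal diet library was thus the high one, with a LysM-DKO over WT log2 ratio of -3.11 (-4.41 to -2.08). Unlike C3ar1 and C5ar1, most C5ar2 UMIs lay outside macrophages, which held 27.3% to 32.1% of them in the 4 libraries. WT on normal diet had 36 C5ar2 UMIs in smooth muscle, 18 in endothelial and 10 in fibroblast barcodes. Smooth muscle C5ar2 was 1.56 CPM in WT on normal diet and 0.10 to 0.29 CPM in the other libraries. The endothelial levels were 3.55, 1.38, 0.30 and 0.56 CPM and the fibroblast levels 3.51, 1.64, 0.26 and 0.30 CPM, so the same library was highest in all 4 of these classes.

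Among fibroblasts, Cd55 was highest in the Pi16 or Dpp4 subset in 3 of 4 libraries, WT/ApoE-/- being the exception. In the Pi16 or Dpp4 subset it read 146 and 208 CPM on normal diet and 86.6 and 50.5 CPM on western diet. In the Spp1 subset it read 32.8 and 38.2 CPM and then 5.68 and 8.29 CPM. Over the fibroblast class the levels were 90.0, 127, 40.4 and 25.6 CPM, and 1 barcode gave 55 of the 158 UMIs in WT/ApoE-/- and another 49 of the 256 UMIs in WT on normal diet. Western over normal diet gave log2 ratios of -1.15 in WT (-1.45 to -0.86) and -2.30 in LysM-DKO (-2.66 to -1.97), whose directions on the Pi16 or Dpp4 subset were the same. In WT fibroblasts without 3 or more Spp1, Tnfrsf11b and Vcam1 UMIs the ratio turned to 0.37, and that remainder keeps the barcode of 55 UMIs. The 10% of fibroblast barcodes richest in Cd55 held 84.0%, 82.2%, 100% and 100% of its UMIs. On western diet only 50 of 634 WT/ApoE-/- and 56 of 654 LysM-DKO/ApoE-/- barcodes had any Cd55 UMI. The 100% there follows from this low detection and does not measure concentration. B barcodes had 79.7 CPM in WT and 51.8 CPM in LysM-DKO on normal diet and 121 CPM in WT/ApoE-/-.

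Counts of members past 2-fold, with at least 20 UMIs over both libraries, are given with the share of all genes that passed the same rule. On normal diet no member passed among 6 tested in fibroblasts, where 2.71% of 11521 genes were higher and 1.57% lower in LysM-DKO. In macrophages C3 was higher (1 of 8 members, 6.55% of all genes) and C5ar2 lower (1 of 8, 2.39%), but the C3 log2 ratio of 1.22 was -0.035 without barcodes that met several class rules. In endothelial barcodes C3 and C4b were higher (2 of 7, 3.51%) and C5ar2 lower (1 of 7, 1.05%). Without barcodes that met several rules neither endothelial call held, with C3 going from 1.98 to 0.78 and C4b from 1.37 to -0.95. Smooth muscle barcodes also had C3 and C4b higher (2 of 9, 6.48%) and C5ar2 lower (1 of 9, 0.975%).

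On western diet C3 alone was lower in fibroblasts (1 of 6, 3.7%), and none was higher (3.11%). In smooth muscle barcodes 7 of 8 members were lower in LysM-DKO/ApoE-/- (9.52% of 15552 genes) and none was higher (1.92%). The exception was Serping1, at -0.57 (-0.63 to -0.52). The 7 include the receptor genes C3ar1, at 0.66 against 4.71 CPM, and C5ar1, at 0.23 against 1.22 CPM. Macrophage reference transcripts in this class were also lower, at 0.45% against 1.48% of the macrophage level, and their part was not tested. In barcodes with no Dcn or Lum UMI the C1ra and Cd55 calls were lost, at -0.94 and -0.09. In endothelial barcodes C3, C4b and C1s1 were lower (3 of 6, 3.68%) and Cd55 was higher (1 of 6, 3.03%), and without barcodes that met several rules the C4b and Cd55 calls were lost, at -0.55 and 0.85. In macrophages C3, Serping1, C1ra and C1s1 were lower (4 of 7, 9.1%) and C4b was higher (1 of 7, 4.1%). Without barcodes that met several rules C1ra was at 0.038 and Serping1 at -0.92, and C4b was at 0.88 with a minimum of 2000 UMIs per barcode. The 4 lower genes were highest in fibroblasts in every library and had 17, 24, 9 and 8 UMIs in LysM-DKO/ApoE-/- macrophages. Summed fibroblast markers in macrophage barcodes were 3362 CPM in WT/ApoE-/- and 784 CPM in LysM-DKO/ApoE-/-.

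**Figure D5:**
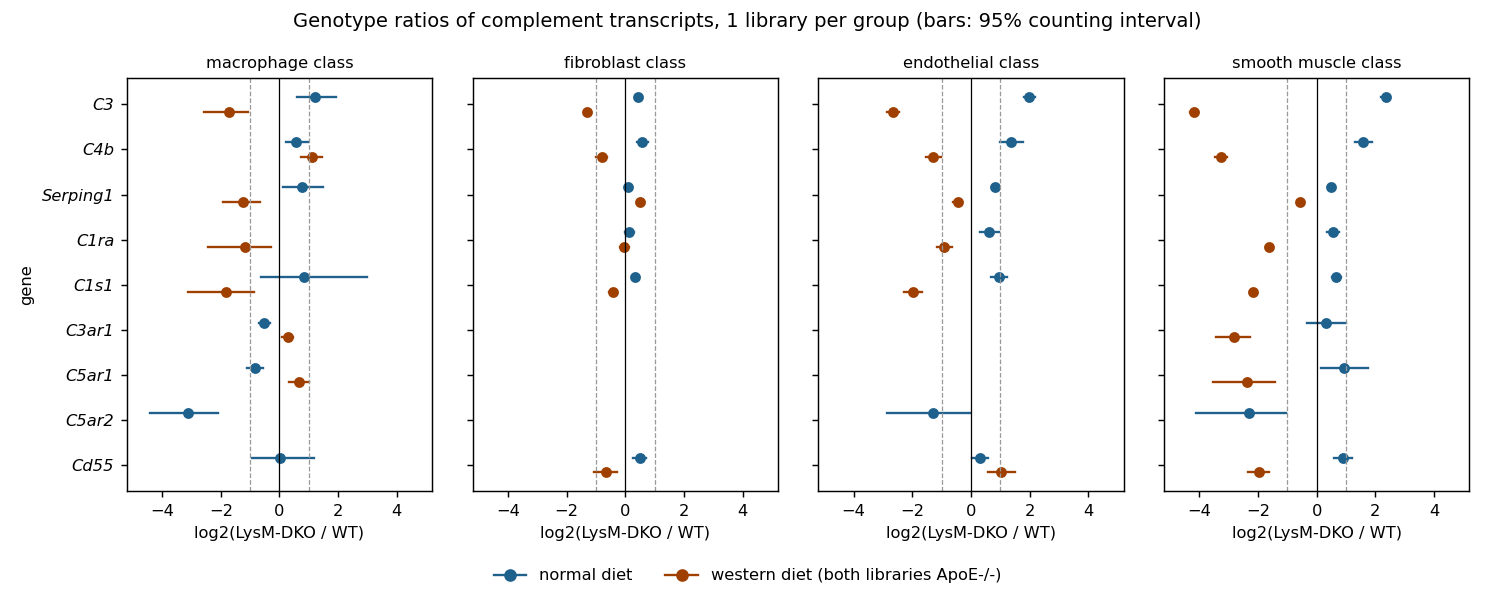
Log2 ratio of LysM-DKO over WT (x axis) for each member (rows) in 4 classes, on normal diet and on western diet, with 95% counting intervals; dashed lines mark 2-fold and members under 20 UMIs are left out. In the smooth muscle class C3 goes from 2.35 on normal diet to -4.19 on western diet, while C1ra in fibroblasts stays between -0.04 and 0.14.

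The median genotype log2 ratio in fibroblasts was 0.38 over 6 members on normal diet (all genes 0.0023) and -0.54 on western diet (all genes 0.048). For smooth muscle barcodes it was 0.67 over 9 members (all genes 0.017) and -2.28 over 8 members (all genes -0.017). The latter includes C3ar1 and C5ar1, with 32 and 11 UMIs in LysM-DKO/ApoE-/-. It covers the whole class. In barcodes with no Dcn or Lum UMI the western diet ratio was -3.16 for C3, -0.94 for C1ra, -0.09 for Cd55 and -0.07 for Serping1.

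The diet comparisons use the same 4 libraries and are set beside each other without further comparison. In WT, western diet with ApoE-/- was associated with lower C4b, C3ar1, C5ar1, C5ar2 and Cd55 in macrophages (5 of 9 members, 8.71% of all genes), while C1ra and C1s1 passed in the other direction (2 of 9) at a share near that of all genes (21%). These rest on 4 UMIs each in WT on normal diet, and fibroblast markers in macrophage barcodes went from 599 to 3362 CPM in the same comparison. The makeup of the class changed as well. Lyve1 or Folr2 barcodes went from 41.3% to 9.27% of WT macrophages, and Trem2 or Gpnmb barcodes from 9.78% to 42.8%. The part of this change in the lower class levels was not tested. The C5ar1 log2 ratio was -2.38 (-2.64 to -2.12) and that of C3ar1 -1.18 (-1.35 to -1.01), with the median of all genes at 0.25. That median was 0.10 in LysM-DKO macrophages, 0.13 in WT fibroblasts and 0.16 in LysM-DKO fibroblasts. In LysM-DKO macrophages C3, Serping1 and Cd55 were lower (3 of 8, 6.46%) and none was higher (7.11%), with C5ar1 at -0.87 (-1.23 to -0.52) and C3ar1 at -0.39 (-0.60 to -0.18). In WT fibroblasts Cd55 was lower (1 of 6, 7.72%) and none higher (9.59%), and C3 differed by 0.28 (0.21 to 0.35). In LysM-DKO fibroblasts C3, C1s1 and Cd55 were lower (3 of 6, 5.63%) and none higher (5.93%), C3 by -1.45 (-1.54 to -1.36). In WT smooth muscle barcodes 5 of 9 members were higher (5.43%), C3 by 3.26 (3.13 to 3.41), and C5ar2 was lower (1 of 9, 9.25%). In LysM-DKO smooth muscle barcodes 6 of 8 were lower (17%), C3 by -3.27 (-3.43 to -3.13), and none was higher (2.72%). Over the alternative settings the WT smooth muscle ratios fell as low as 0.76 for C1s1, 0.61 for C3ar1 and 1.65 for C3. That of C1s1 in LysM-DKO reached -0.93. Barcodes with a Dcn or Lum UMI went from 34.0% to 73.8% of the class in WT and from 49.8% to 17.9% in LysM-DKO. WT endothelial barcodes had C3, C4b, C1ra and C1s1 higher (4 of 6, 5.91%) and Cd55 lower (1 of 6, 8.55%), and LysM-DKO endothelial barcodes had C3 lower (1 of 6, 8.75%) and none higher (3.45%). Without barcodes that met several rules this C3 ratio went from -1.66 to 0.16, and in WT macrophages C1ra was at 0.47 and C3ar1 at -0.81. Without the Spp1 barcodes C3 and C1s1 in LysM-DKO fibroblasts were at -0.90 and -0.89, and Cd55 in WT fibroblasts was at 0.37, no longer past 2-fold.

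Of 40 other complement genes, the 37 that the class rule did not use were counted by the same rule. In fibroblasts on normal diet 4 of 18 tested were higher in LysM-DKO (Cfd, Cfi, Cd46 and Vtn), beside 2.71% of all genes, and none was lower (1.57%). Vtn, which encodes vitronectin, read 23.7 against 6.33 CPM (log2 ratio 1.88, 1.16 to 2.73), and the other 3 had at most 28 UMIs over both libraries. On western diet 3 of 14 were lower (C1rl, Clu and Cd93), beside 3.7% of all genes, and none was higher (3.11%). Clu, which encodes the fluid-phase inhibitor clusterin, read 330 CPM in LysM-DKO/ApoE-/- against 1407 CPM in WT/ApoE-/- (-2.09, -2.19 to -2.00). Cfb in fibroblasts read 102 and 155 CPM on normal diet and 172 and 107 CPM on western diet. C2 read 56.9, 81.6, 63.2 and 57.5 CPM. C7 of the terminal pathway read 53.4 and 28.7 CPM and then 199 and 289 CPM. Hc, which encodes C5, had at most 2 UMIs per library in fibroblasts and none in macrophages.

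In macrophages on western diet Fcna and Cfp were higher in LysM-DKO/ApoE-/- (2 of 13 tested, 4.1% of all genes) and Cfb, C7 and Clu lower (3 of 13, 9.1%). Fcna, which encodes a ficolin of the lectin pathway, read 62.7 against 5.63 CPM (3.46, 2.71 to 4.29), and Cfp, the gene of properdin, 133 against 62.1 CPM (1.10, 0.73 to 1.44). On normal diet 5 of 15 were higher (Cfb, Cfd, C6, Cd59a and Itgax), beside 6.55% of all genes. Vsig4, a C3b receptor of resident macrophages, was lower (1 of 15, 2.39%) at 12.7 against 163 CPM (-3.64, -4.62 to -2.85). B markers in the same macrophage barcodes were 124 CPM in WT and 1130 CPM in LysM-DKO, and their part in these counts was not tested. In smooth muscle barcodes 14 of 23 were lower in LysM-DKO/ApoE-/- (9.52% of all genes) and none was higher (1.92%), with Cfb at 0.60 against 14.1 CPM (-4.53, -5.14 to -4.01). On normal diet 8 of 22 were higher in LysM-DKO (6.48%) and none was lower (0.975%), including Cfd, the gene of adipsin, at 26.3 against 0.17 CPM from 452 and 4 UMIs. Both smooth muscle counts include receptor genes as well as soluble components. Fibroblast and neutrophil markers in this class also differed between libraries, as given with the C3 levels above. The other complement genes were not counted in barcodes with no Dcn or Lum UMI, so the part of other cell types was not tested.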

How the data were processed

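The labels' protocols describe aortas digested with collagenases and liberase and 10x 3' v3.1 libraries. The authors deposited UMI counts per gene and barcode. Per the submitters' processing notes, Cell Ranger 6.1.2 and Seurat 4.1.0 were used on build mm10, while the file headers name Cell Ranger 6.0.1 (normal diet) and 6.1.2 (western diet), so the version moves with diet. From these counts, barcodes of 1000 or more UMIs, at most 10% of them mitochondrial, were kept (7758, 8230, 13744 and 8133), classed by marker UMIs (C1qa, C1qb and C1qc 5 or more; Cd79a and Ms4a1 2; Cd3d, Cd3e and Trac 2; Pecam1 and Cdh5 2; Pdgfra and Serpinf1 3; Myh11 and Cnn1 3; first match), and summed. Ratios carry 95% intervals (exact binomial; CPM exact Poisson), with 0.5 UMIs added to point values. UMIs limit the precision to counting error. Doublets were kept in the main values and removed in an alternative (up to 0.8% per 1000 scored, by scanpy 1.11.5). Named genes were the members, other complement genes past 2-fold with at least 20 UMIs, and the 3 most alike genes per member. Of the other complement genes, 1 is not reported here by name. The members and lists were chosen with earlier results of these data known. The smooth muscle and endothelial subsets, the class subsets, hemoglobin and shared barcode alternatives were chosen after seeing the data. The interval code was tested on simulated data.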

Additional observations from a re-analysis of the deposited data

Results flagged for a closer look

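For 5 gene and class pairs the LysM-DKO over WT ratio passed 2-fold in opposite directions on the 2 diets. The difference between the diets (western minus normal, log2) was -6.54 for C3 and -4.84 for C4b in smooth muscle barcodes, -4.63 for C3 and -2.65 for C4b in endothelial barcodes, and -2.95 for C3 in macrophage barcodes. Without barcodes that met several class rules the normal diet ratios of C4b in endothelial (-0.95) and C3 in macrophage barcodes (-0.035) turned, so these 2 pairs were no longer opposite, and that of C3 in endothelial barcodes was 0.78. These differences were not tested, since each group is 1 library, and the marker values that moved with them are given with the C3 levels above.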

How the results depend on the processing

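No paired analysis was possible because each group is 1 library. Over the macrophage, endothelial, fibroblast and smooth muscle classes and 4 contrasts, 57 member ratios passed 2-fold, and 47 to 72 did so under the alternatives. The normal diet genotype count fell from 8 to 5 when barcodes meeting several class rules were left out. Of 65 ratios past 2-fold (B and T classes on normal diet included), 53 still passed under that setting, 59 with class thresholds doubled, 52 in the class subsets, and 62 to 65 under each other alternative. Some ratios past 2-fold turned in sign when barcodes meeting several class rules were left out. On normal diet these were C3 in macrophages (-0.035) and C4b in endothelial barcodes (-0.95). The others were C1ra in macrophages on western diet (0.038) and C3 in LysM-DKO endothelial barcodes between diets (0.16). Cd55 in WT fibroblasts between diets turned (0.37) without Spp1, Tnfrsf11b and Vcam1 barcodes. Some smaller ratios also crossed 0 under an alternative. Examples on western diet were C3ar1 in macrophages (0.28 to -0.0013) and Serping1 in fibroblasts (0.52 to -0.02). The causes were not tested. As in the values reported, 6 of 9 members had the same highest class in all 4 libraries under each of the 4 alternatives run for it (500 or 2000 UMIs, equal weight per barcode, and 1000 UMIs per barcode). Depth limits C5ar2 most, with 3 to 35 UMIs per macrophage class, so its western diet difference between genotypes could not be called.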
